A study of Gallus gallus with 8 samples.

Results

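Genes of fatty acid synthesis, elongation and desaturation were followed in the breast muscle of broiler chickens that differed in meat toughness. The genes were taken by symbol from the authors' deposited results table: THRSP, ACACA, FASN, ME1, ELOVL5, FADS1, FADS2 and LPIN1. Of 10 symbols sought among the 8076 genes of that table, these 8 had a row, and ACLY and SCD were not analysed here. The count table held 17108 genes. The 8 genes all passed the filter on low counts. The birds were female Hubbard Flex chickens, a commercial meat line, aged 6 weeks, and all 8 shared that strain, sex and age. In 4 birds the pectoralis muscle had a high and in 4 a low shear force, the force needed to cut the meat. They are called high-force and low-force birds. The groups were defined by this measured property, and the labels name no treatment. RNA came from muscle tissue, not sorted cells, so fewer cells of a type and less RNA per cell cannot be told apart.

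Fatty acid synthesis turns cytosolic acetyl-CoA into palmitate. Acetyl-CoA carboxylase makes malonyl-CoA, fatty acid synthase joins these units, and malic enzyme supplies NADPH for the reductions. Elongases and desaturases then lengthen fatty acids and add double bonds, and lipin makes the diacylglycerol that goes into triglyceride and phospholipid. In birds the liver is the main site of this synthesis, while fat cells inside muscle mostly store fat. THRSP, also called Spot 14, is a small protein first described in rat liver as induced by thyroid hormone, and its level goes with the rate of fatty acid synthesis there.

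THRSP was the member with the widest gap between the groups. Its level was 8.30, 7.93, 10.2 and 3.66 CPM (counts per 1000000 of the library, scaled by TMM) in high-force birds 1 to 4. In low-force birds 1 to 4 it was 2.15, 1.93, 1.80 and 1.51 CPM. Every high-force bird lay above every low-force bird, and high-force bird 4 was the nearest to the other group. High-force birds averaged 7.51 ± 2.75 CPM (SD, n = 4) and low-force birds 1.85 ± 0.267 CPM (SD, n = 4), a 4.04-fold difference. The log2 fold change of 2.01 ± 0.34 (SE) had a 95% interval from 1.27 to 2.76. The edgeR quasi-likelihood test gave an unadjusted p of 7.86e-05, the 7th smallest p-value among 10136 genes, and an adjusted p of 0.107, so the difference did not pass the threshold of 0.05. The exact 2-sided permutation p over the 70 assignments of birds was 0.0286, the smallest that this design allows. In 626 of 10136 genes (6.18%) the groups did not overlap, with the high-force birds on top in 3.89%, and THRSP was the single member among them.

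THRSP rested on few reads. The 4 high-force birds had 52, 57, 81 and 25 counts and the low-force birds 14, 11, 14 and 9. Exact binomial 95% intervals, which cover counting error only, ran from 2.37 to 5.41 CPM for high-force bird 4 and from 1.18 to 3.61 CPM for low-force bird 1. These intervals overlapped, whereas those of high-force birds 1, 2 and 3, with lower bounds of 6.20, 6.00 and 8.07 CPM, lay above the upper bound of every low-force bird. The gene covers 1432 bases of chromosome 1, from 192074426 to 192075857, as placed by the authors' deposited table, and galGal4 is the build named in the submitters' processing notes. Chicken has a second copy of this gene, THRSPB, which lies next to THRSP in the RefSeq annotation of GRCg7b. No row of the deposited table has that symbol, so how reads of the copies were assigned is uncertain. Before rounding, the expected counts of THRSP were 57.08 and 80.95 in high-force birds 2 and 3 and 8.99 in low-force bird 4, and whole in the other birds.

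Whether THRSP passed depended on the tool. Within edgeR it differed between a run with and a run without a filter, and between the authors' values and those here. DESeq2 called it (log2 fold change 2.00 ± 0.39 (SE), adjusted p = 0.000289), as 1 of 123 genes, which is 1.21% of those it tested. The edgeR test without a filter on low counts also called it (adjusted p = 0.0386), while limma-voom did not (adjusted p = 0.139). In the authors' deposited table THRSP had an adjusted p of 0.000247 by edgeR, which called 1.13% of 8076 genes there, and 7.19e-05 by DESeq2, which called 1.82%. The log2 fold change stayed between 1.82 and 2.24 with any 1 bird left out and was 2.08 without low-force birds 1 and 3. By the edgeR quasi-likelihood test, the adjusted p of THRSP then ran from 0.0755 to 0.298 and was 0.386, so it did not pass.

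**Figure D1:**
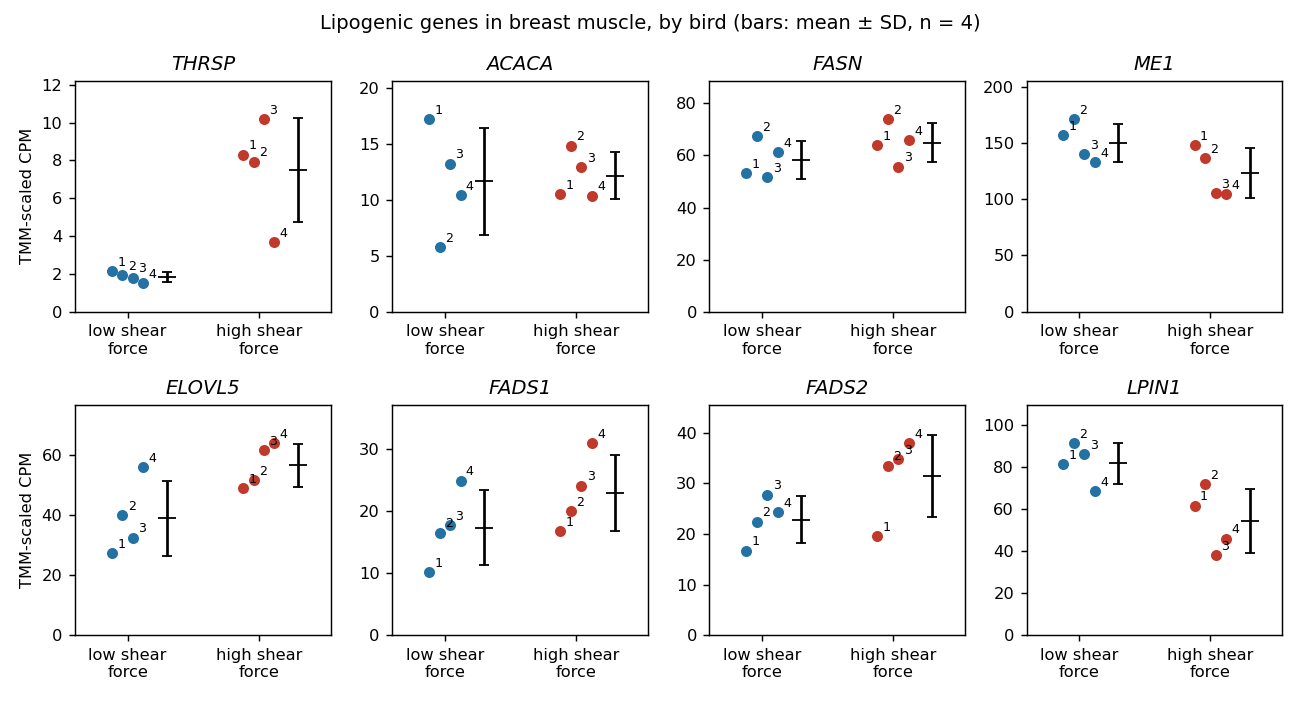
TMM-scaled CPM of the 8 genes (y axis, from 0) in each bird, low-force birds in blue and high-force birds in red, with the bird number beside each point and the mean ± SD of 4 birds as black bars. THRSP is the one panel in which the groups do not overlap, at 1.51 to 2.15 against 3.66 to 10.2 CPM.

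None of the other 7 genes had an adjusted p under 0.05 by edgeR, nor did any gene of the table. The test called 0 of 10136 genes (0%), and at an adjusted p of 0.1 it called 5 (0.0493%), no member among them. At an unadjusted p under 0.05 stood 3 of the 8 members, THRSP and ELOVL5 higher and LPIN1 lower, against 1301 of 10136 genes (12.8%), with 7.92% of all genes higher and 4.91% lower. Of the 8 members 6 had a positive log2 fold change, against 50.8% of all genes. Their median was 0.28, beside 0.0064 over all genes, and it was 0.16 without low-force birds 1 and 3. DESeq2 called 1 member, THRSP. Because the members were chosen with earlier results of these data known, their counts beside the shares of all genes are a description.

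No difference between the groups was resolved for the enzymes that build palmitate. FASN, the fatty acid synthase (chromosome 18, 4886002 to 4935063), had 63.9, 73.8, 55.7 and 65.9 CPM in high-force birds 1 to 4. The low-force birds 1 to 4 had 53.2, 67.4, 51.7 and 61.2 CPM. The groups overlapped over most of their range, and FASN varied least of the 8 genes, with a highest bird 1.43 times the lowest. FASN had a log2 fold change of 0.15 ± 0.15 (SE), with a 95% interval from -0.16 to 0.47 and an edgeR adjusted p of 0.671. Without low-force birds 1 and 3 the FASN value was -0.021.

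ACACA, acetyl-CoA carboxylase 1, makes the malonyl-CoA that FASN uses (chromosome 19, 8446046 to 8541999). Its levels were 10.5, 14.9, 12.9 and 10.4 CPM in high-force birds 1 to 4. Low-force birds 1 to 4 had 17.2, 5.79, 13.2 and 10.4 CPM. The low-force birds held both the highest and the lowest value, and the high-force birds lay between them. ACACA differed by a log2 fold change of 0.058 ± 0.29 (SE), with a 95% interval from -0.57 to 0.69 (edgeR adjusted p = 0.949). The sign rested on single birds: it was -0.19 without low-force bird 2, 0.28 with low-force bird 1 removed and -0.051 once high-force bird 2 was left out. Without low-force birds 1 and 3 together it was 0.55.

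ME1, the cytosolic malic enzyme (chromosome 3, 77166449 to 77331130), stood at 148, 136, 105 and 104 CPM in high-force birds 1 to 4. Low-force birds 1 to 4 stood at 157, 171, 140 and 133 CPM. High-force birds 3 and 4 lay below all others, while birds 1 and 2 of that group lay within the range of the low-force birds. On the log2 scale ME1 differed by -0.28 ± 0.16 (SE), with a 95% interval from -0.64 to 0.073, and did not pass (edgeR adjusted p = 0.476).

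FASN was the one gene of the 8 with more than 1 transcript in the deposited transcript table. FASN-202 carried most of the expected counts, and FASN-201 took between 21.4% and 37.3% of them in the high and between 21.7% and 28.0% in the low-force birds. The mean share was 29.4% ± 6.50 (SD, n = 4) against 24.2% ± 2.68 (SD, n = 4), a difference within the spread of the birds (exact 2-sided permutation p = 0.229). The log2 fold change was 0.44 ± 0.23 (SE) for FASN-201 and 0.052 ± 0.15 (SE) for FASN-202, with edgeR adjusted p-values of 0.444 and 0.904 over 10362 transcripts, of which 0 (0%) passed. RSEM, named in the processing notes, estimates such splits from shared reads. For the other 7 genes the transcript held the same counts as the gene, within 0.02 counts.

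**Figure D2:**
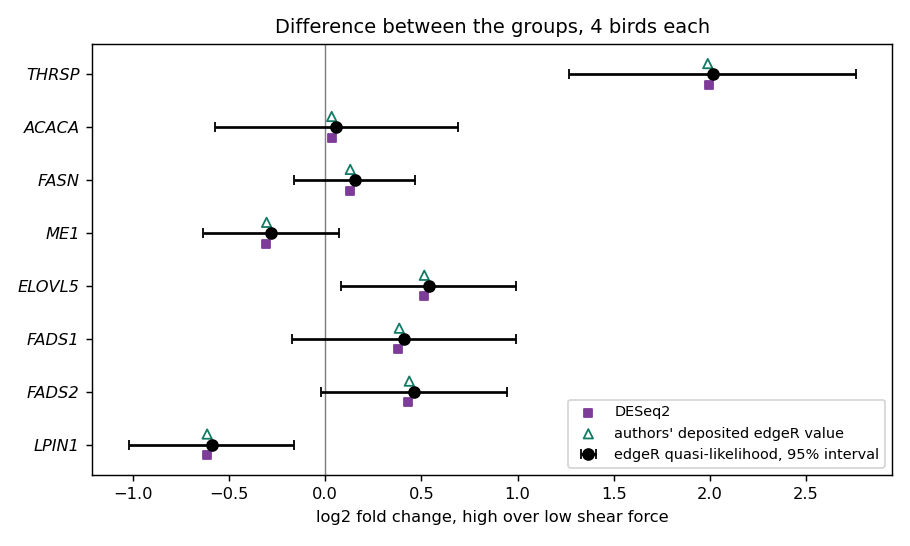
Log2 fold change of high over low-force birds (x axis) for the 8 genes, with the 95% interval of the edgeR quasi-likelihood fit in black, the DESeq2 value as a square and the authors' deposited edgeR value, turned to the same direction, as a triangle. The interval of THRSP runs from 1.27 to 2.76, and those of ELOVL5 and LPIN1 also leave out 0 before adjustment over all genes.

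ELOVL5, FADS1 and FADS2, of elongation and desaturation, had positive log2 fold changes that did not pass. ELOVL5, which elongates polyunsaturated fatty acids (chromosome 3, 87654796 to 87692542), had 49.0, 51.6, 61.5 and 63.9 CPM in high-force birds 1 to 4. Low-force birds 1 to 4 had 27.4, 40.01, 32.5 and 55.95 CPM. Low-force bird 4 lay inside the range of the high-force birds, and the other 3 low-force birds lay below it. ELOVL5 had a log2 fold change of 0.54 ± 0.21 (SE), with a 95% interval from 0.082 to 0.99, an unadjusted p of 0.0245 and an edgeR adjusted p of 0.340. Without low-force birds 1 and 3 it was 0.20.

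FADS1 and FADS2, the delta-5 and delta-6 desaturases of polyunsaturated fatty acid synthesis, lie 6709 bases apart on chromosome 5 (16078379 to 16087971 and 16094681 to 16111781). FADS2, which acts first, stood at 19.6, 33.5, 34.8 and 37.95 CPM in high-force birds 1 to 4. In low-force birds 1 to 4 it stood at 16.8, 22.5, 27.8 and 24.4 CPM. High-force bird 1 fell within the low-force range, and the other 3 birds of its group lay above it. The log2 fold change of 0.46 ± 0.22 (SE) had a 95% interval from -0.021 to 0.95 and an edgeR adjusted p of 0.404.

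FADS1 stood at 16.8, 20.02, 24.1 and 30.9 CPM in high-force birds 1 to 4. In low-force birds 1 to 4 it stood at 10.1, 16.5, 17.7 and 24.9 CPM. The groups overlapped, with low-force bird 4 above 3 of the high-force birds. For FADS1 the log2 fold change was 0.41 ± 0.27 (SE), with a 95% interval from -0.17 to 0.99 (edgeR adjusted p = 0.526). The value was 0.20 without low-force bird 1, 0.62 without low-force bird 4, 0.23 when high-force bird 4 was left out and 0.12 without low-force birds 1 and 3. As close relatives these desaturases could share reads, but the expected counts of both were whole numbers in every bird, so no fractional split of reads shows.

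ELOVL5, FADS1 and FADS2 ranked the birds alike at both ends. High-force bird 4 was the highest and low-force bird 1 the lowest of the 8 birds for each of the 3 genes. THRSP ranked them otherwise, since high-force bird 4 was the lowest of its group and low-force bird 1 the highest of its own. The THRSP order among the low-force birds rested on 9 to 14 counts with overlapping counting intervals, so it is not resolved. Within a bird, the log2 ratio of FADS1 to FADS2 counts was -0.448 ± 0.234 (SD, n = 4) in high-force birds and -0.444 ± 0.337 (SD, n = 4) in low-force birds, a difference of -0.0033 that does not depend on library scaling (exact 2-sided permutation p = 1). The ELOVL5 to FADS2 ratio differed by 0.14 (exact p = 0.6) and the FASN to ACACA ratio by 0.0018 (exact p = 1). After Benjamini-Hochberg adjustment over the 5 ratios compared, all of these p-values were 1.

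**Figure D3:**
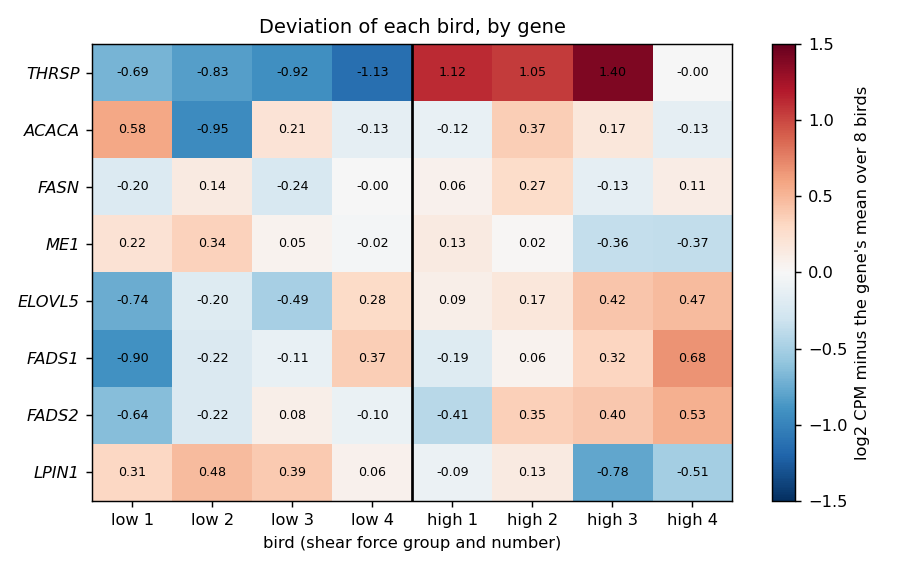
Log2 CPM of each gene (rows) in each bird (columns) minus the gene's mean over the 8 birds, low-force birds left of the line and high-force birds right of it, red above and blue below the mean. THRSP runs from -1.13 to 1.40, and ELOVL5, FADS1 and FADS2 are highest in high-force bird 4 and lowest in low-force bird 1.

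LPIN1 had the most negative log2 fold change of the 8 genes, without passing. It encodes lipin 1, the phosphatidate phosphatase that makes diacylglycerol (chromosome 3, 96971362 to 97044067). Its levels were 61.6, 72.0, 38.1 and 46.0 CPM in high-force birds 1 to 4. Low-force birds 1 to 4 had 81.4, 91.4, 86.3 and 68.6 CPM. Only high-force bird 2 reached the low-force range, above low-force bird 4, and birds 3 and 4 of the high-force group were the lowest. LPIN1 had a log2 fold change of -0.59 ± 0.20 (SE), with a 95% interval from -1.02 to -0.16, an unadjusted p of 0.0114 and an edgeR adjusted p of 0.297. It stayed between -0.75 and -0.46 with any 1 bird left out and was -0.59 without low-force birds 1 and 3, and none of edgeR, DESeq2 and limma-voom called it.

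The biological coefficient of variation fitted by edgeR, which is shrunk toward the trend of genes at the same level, was 29.95% for THRSP (trend 30.6%), 28.3% for ACACA (trend 25.7%) and 16.7% for FASN (trend 21.2%). For the other 5 genes it ran from 18.7% for ME1 (trend 22.3%) to 26.7% for FADS1 (trend 22.9%). High-force bird 2 was above the mean log2 CPM of the 8 birds for all 8 genes, and no other bird was so for more than 5.

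The other isoform of acetyl-CoA carboxylase, ACACB, makes malonyl-CoA at the mitochondrion, where it restrains fatty acid oxidation. ACACB averaged 8.67 ± 2.18 CPM (SD, n = 4) in high-force birds and 14.8 ± 4.18 CPM (SD, n = 4) in low-force birds. On the log2 scale this is -0.77 ± 0.25 (SE), with an adjusted p of 0.288 in edgeR. The log2 ratio of ACACA to ACACB counts was 0.503 ± 0.448 (SD, n = 4) in high-force birds and -0.405 ± 0.565 (SD, n = 4) in low-force birds. That difference of 0.91 had an exact 2-sided permutation p of 0.0571 and an adjusted p of 0.286 over the 5 ratios. None of the 5 ratios was planned: 3 were chosen after the levels had been seen, and ACACA to ACACB and THRSP to PLIN1 were added after the first 3 had been computed. ACACB, MLYCD (malonyl-CoA decarboxylase) and genes of mitochondrial fatty acid synthesis gave 4 positive and 2 negative log2 fold changes, with a median of 0.086. ACACB alone had an unadjusted p under 0.05 and was lower, against 4.91% of all genes. NDUFAB1, the mitochondrial acyl carrier protein, had a log2 fold change of 0.34 ± 0.22 (SE), but of 0.014 without low-force birds 1 and 3.

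Genes that supply carbon and NADPH for lipogenesis had small log2 fold changes. Of 7 measured, 4 had a positive and 3 a negative log2 fold change, with a median of 0.18 and none at an unadjusted p under 0.05. The log2 fold change of CS, citrate synthase, was 0.28 ± 0.15 (SE) and that of ME3, a mitochondrial malic enzyme, -0.35 ± 0.23 (SE), which ran from -0.52 to -0.15 with 1 bird left out. SLC25A1, which exports citrate from mitochondria, had one of 0.198 ± 0.16 (SE). On the log2 scale CS was at 0.15, SLC25A1 at 0.082 and ME3 at -0.54 without low-force birds 1 and 3.

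Other elongation and desaturation genes gave 8 positive and 2 negative log2 fold changes of 10 measured, with a median of 0.13 and 1 gene, CYB5R3, at an unadjusted p under 0.05 and lower, against 4.91% of all genes. CYB5R3, which passes electrons to desaturases through cytochrome b5, had a log2 fold change of -0.32 ± 0.14 (SE), with no overlap between 132 to 155 CPM in the high and 165 to 197 CPM in the low-force birds (edgeR adjusted p = 0.357). Over all genes 6.18% had no overlap. TECR, the last enzyme of the elongation cycle, had a log2 fold change of 0.39 ± 0.24 (SE), which was 0.64 without low-force birds 1 and 3.

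Glycerolipid synthesis genes were split, with 5 positive and 5 negative log2 fold changes of 10 and a median of -0.055. An unadjusted p under 0.05 stood at 3 of them, 2 higher and 1 lower, against 12.8% of all genes. PPAP2C, a lipid phosphate phosphatase, averaged 9.53 ± 2.57 CPM in high-force and 4.72 ± 1.33 CPM in low-force birds (SD, n = 4). Its difference was 1.02 ± 0.28 (SE) on the log2 scale, with an edgeR adjusted p of 0.230. AGPAT9, an acyltransferase of the first step of triglyceride synthesis, differed by -0.45 ± 0.15 (SE) on the log2 scale, with an adjusted p of 0.307 in edgeR. Both, named for the smallest p of their list, had no overlap between the groups, as had 6.18% of all genes. GPAM, the mitochondrial enzyme of that step, differed by -0.14 ± 0.42 (SE) on that scale, which turned to 0.78 without low-force birds 1 and 3.

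Of 9 genes of fatty acid activation and uptake 6 had a log2 fold change above 0 and 3 below, the median was 0.076, and 2, both higher, had an unadjusted p under 0.05, against 7.92% of all genes. The fatty acid binding proteins FABP5 and FABP3 were these 2, with log2 fold changes of 0.56 ± 0.21 and 0.57 ± 0.22 (SE), both at an adjusted p of 0.340 in edgeR. On that scale FABP5 was at 0.23 without low-force birds 1 and 3, and FABP3 at 0.37 without high-force bird 2.

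Measured regulators of lipogenic genes numbered 7, of which 5 had a positive and 2 a negative log2 fold change, with a median of 0.13 and none at an unadjusted p under 0.05. THRA, the alpha receptor of thyroid hormone, averaged 14.6 ± 1.56 CPM in high-force and 12.2 ± 2.09 CPM in low-force birds (SD, n = 4), which is 0.25 ± 0.19 (SE) on the log2 scale. SREBF2, a sterol-regulated transcription factor, had a log2 fold change of 0.34 ± 0.22 (SE), which was 0.14 without low-force bird 2 and 0.74 without low-force birds 1 and 3. INSIG1, which retains that factor in the endoplasmic reticulum, differed by 0.055 ± 0.33 (SE) on the log2 scale, and its sign changed with single birds left out. SREBF1, MLXIPL, NR1H3, THRB and MID1IP1 were not analysed here. None of the genes in these pathway groups passed by edgeR or by DESeq2.

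PLIN1, a marker of fat cells, had no overlap between the groups either, with the high-force birds on top, as in 3.89% of all genes. The groups overlapped for every other adipocyte marker analysed. Of these markers PLIN1 alone had an unadjusted edgeR p under 0.05, where 7.92% of all genes did so and were higher. Of 9 adipocyte markers found by symbol, out of 14 listed, 7 were above 0 on the log2 scale, against 50.8% of all genes, with a median of 0.29. By edgeR 0 passed, as over all genes, and by DESeq2 1 passed, where 1.21% of all tested genes did. PLIN1, which coats lipid droplets, averaged 25.5 ± 7.01 CPM in high-force and 7.02 ± 4.38 CPM in low-force birds (SD, n = 4), which is 1.87 ± 0.36 (SE) on the log2 scale. The edgeR adjusted p of PLIN1 was 0.107. It ran from 0.0329 without low-force bird 4 to 0.320 without low-force bird 1, and was 0.470 without low-force birds 1 and 3, where the log2 fold change was 1.45. FABP4 had a log2 fold change of 0.499 ± 0.33 (SE), which was lowest, 0.25, without high-force bird 1 and highest, 0.84, with low-force bird 4 left out. None of the 9 was at 0 in any bird. Their summed level ran from 276 to 395 CPM in the high and from 197 to 342 CPM in the low-force birds. ADIPOQ and FABP4 were the largest parts of it, with means of 105 and 82.9 CPM in high-force and 78.0 and 58.6 CPM in low-force birds. Low-force birds 1, 2 and 3 had sums of 207, 197 and 219 CPM, below every high-force bird. High-force bird 4 had both the lowest sum, 276 CPM, and the lowest THRSP, 3.66 CPM, of its group. Low-force bird 4 had the second highest sum of all 8 birds, 342 CPM, together with the lowest THRSP, 1.51 CPM. That THRSP value rested on 9 counts, and its counting interval overlapped those of the other low-force birds. PLIN1 alone ran from 3.84 to 13.4 CPM in the low and from 18.2 to 32.6 CPM in the high-force birds. The log2 ratio of THRSP to PLIN1 counts ran from -2.49 to -1.19 in the high and from -3.08 to -0.81 in the low-force birds, a mean difference of -0.088 (exact 2-sided permutation p = 0.886). This ratio is a description, and the part of fat cells in the THRSP difference was not tested.

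**Figure D4:**
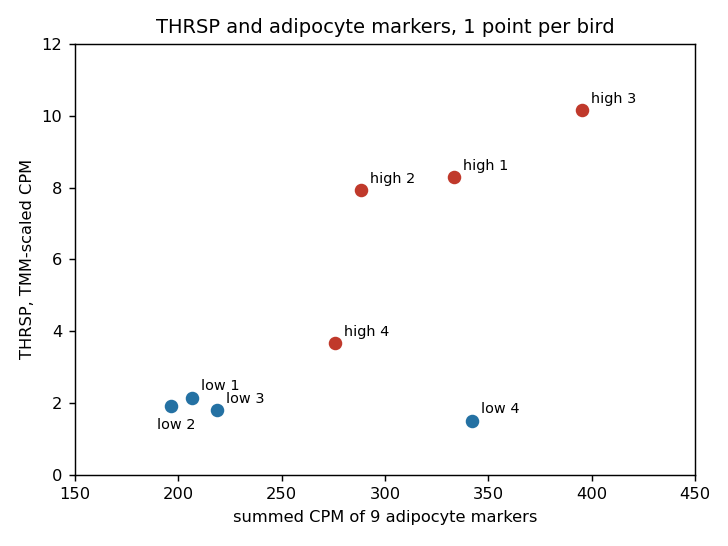
THRSP level (y axis, TMM-scaled CPM) against the summed CPM of 9 adipocyte markers (x axis, starting at 150), 1 point per bird, high-force birds in red and low-force birds in blue. Low-force birds 1, 2 and 3 lie at 197 to 219 CPM on the x axis, left of every high-force bird. Low-force bird 4 combines a sum of 342 CPM with a THRSP level of 1.51 CPM, while high-force bird 3 is highest on both axes.

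Over the 8 birds, the genes most like THRSP were PCOLCE2, MFAP5, SPON2, TMEM132E and GSN. Likeness was the root mean square difference of log2 CPM after centring each gene, and it ran from 0.416 for PCOLCE2 to 0.469 for GSN among 7618 named genes whose log2 CPM averaged 1 or more. PCOLCE2 enhances procollagen processing, MFAP5 is a microfibril protein, SPON2 a secreted matrix protein and GSN the actin-severing gelsolin. GSN had 2541, 2573, 2427 and 1694 CPM in high-force birds 1 to 4 and between 1030 and 1389 CPM in the low-force birds. By the same measure PLIN1 ranked at 81, ELOVL5 at 667, FASN at 1999 and LPIN1 at 7333. These genes were picked for following THRSP over the same birds, so their difference between the groups is a description.

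**Figure D5:**
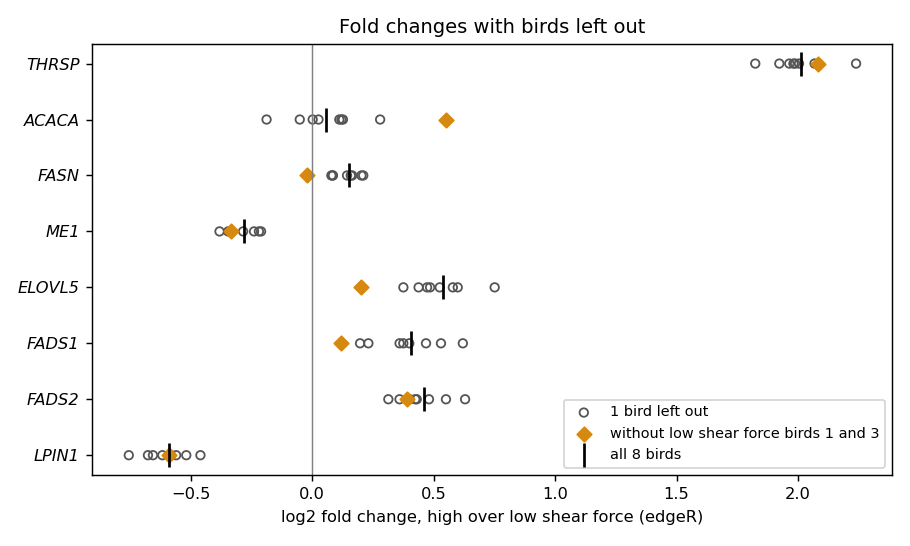
The log2 fold change of high over low-force birds (x axis) for all 8 birds as a bar, with each bird left out in turn as open circles, and without low-force birds 1 and 3 as a diamond. THRSP stays between 1.82 and 2.24, ACACA spans 0, and ELOVL5 and FADS1 drop to 0.20 and 0.12 at the diamond.

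Total expected counts per bird ran from 5564905 to 7322205. Low-force birds 1 and 3 stood apart on the first principal component of log2 CPM, at 39.0 and 43.9 against -24.4 to -3.27 in the other 6 birds. Muscle fibre genes were abundant in every bird, with a summed level of 7 markers between 100700 and 140700 CPM (median log2 fold change -0.0033, 3 higher and 4 lower). Of these 7, 1 had an unadjusted p under 0.05, PVALB, lower at -0.89 ± 0.35 (SE), against 4.91% of all genes lower. All 8 endothelial and all 4 erythrocyte markers measured were above 0 on that scale, with medians of 0.55 and 1.91. At an unadjusted p under 0.05 stood 4 of the 8 and 3 of the 4, against 7.92% of all genes, and none passed by edgeR. The haemoglobin genes HBB, HBAA and HBAD had no overlap between the groups and were called by DESeq2 (adjusted p = 0.0013, 0.00138 and 0.00178). Over all genes 6.18% had no overlap, and DESeq2 called 1.21% of those it tested. HBB averaged 124 ± 94.4 CPM in high-force and 33.8 ± 8.40 CPM in low-force birds (SD, n = 4). CA2, the most abundant erythrocyte marker, averaged 269 and 170 CPM and overlapped. The marker sums ran from 199 to 405 CPM and from 273 to 867 CPM in the high, and from 167 to 278 CPM and from 194 to 310 CPM in the low-force birds. Of 10 genes listed as liver markers 2 were found by symbol, APOA1 and SERPINC1, and the others were not analysed here. Their sum was 708 to 1701 CPM in the high and 386 to 907 CPM in the low-force birds. Most of that sum was APOA1, with means of 1066 and 605 CPM in the high and low-force birds. Which cells the APOA1 RNA came from cannot be told from muscle tissue. SERPINC1 averaged 24.4 and 19.7 CPM. The part of these cell types in the values above was not tested.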

How the data were processed

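Breast muscle RNA of 8 birds was sequenced, per the labels, in 2 technical repetitions per library. The authors deposited expected counts per gene and transcript. Of the gene values 8.22% were not whole. RSEM, TopHat, Bowtie2, FastQC, DESeq2, edgeR and Cuffdiff are listed, per the submitters' processing notes, with the build galGal4. Not given in the sources used here are their roles and versions, the strand setting and how the repetitions were combined. Without a known strand setting, overlapping genes cannot be told apart. Per the file headers, the deposited result tables give the authors' log2 fold changes, p-values and adjusted p-values. Their sign was opposite to high minus low in 94.8% of genes tested against the counts, and was turned.

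Counts were rounded, filtered with filterByExpr of edgeR 4.0.16 (10136 genes and 10362 transcripts kept) and scaled by TMM. Groups were compared by the quasi-likelihood test of edgeR (robust shrinkage), with Benjamini-Hochberg adjustment over all genes at 0.05, in R 4.3.3. Log2 CPM used a prior count of 2. Count ratios within a bird used an offset of 0.5 and, like the test of the FASN transcript share, were chosen after the data had been seen. DESeq2 1.42.0, limma-voom (limma 3.58.1), other scalings and filters, a replicate block and birds left out were the alternatives. The procedure was tested on simulated counts.

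The members and gene lists were chosen with earlier results of these data known. Named were all members, the 2 genes with the smallest p of each pathway list, other fixed genes of the pathway, PLIN1, FABP4 and the 5 genes most like THRSP. Other genes of the lists were not looked at singly, except where the text names them. Gene symbols came from the deposited table, so genes absent there were not analysed here. Nothing in the labels says more of the birds' origin (flock, pen or day), so p-values measure the spread between these 8 birds. No 2 libraries agreed within sampling noise.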

Additional observations from a re-analysis of the deposited data

Results flagged for a closer look

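Among 60 groups of 4 values (30 named genes in each shear force group), 3 held a bird far from the others of its group, where chance flags about 1 in 20 groups. SLC25A1 stood at 17.5 CPM in low-force bird 2 and between 14.0 and 14.4 CPM in the other 3 birds. PCOLCE2 stood at 28.6 CPM in the same bird, against 14.7 to 16.5 CPM. GSN stood at 1690 CPM in high-force bird 4, against 2430 to 2570 CPM. None of the 8 lipogenic genes held such a bird in either group.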

How the results depend on the processing

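The edgeR count of 0 genes became 7 without a filter on low counts, 1 with the replicate number as a block, 5 at a threshold of 0.1 and 123 with DESeq2, and ran from 0 to 7 with 1 bird left out. The count of members called, 0, was 1 without a filter and 1 with DESeq2, THRSP each time, and 0 with any 1 bird left out. The count of transcripts, 0, became 126 with DESeq2 and 3 without low-force birds 1 and 3, and ran from 0 to 3 with 1 bird left out. The cause of these changes was not tested. The members' median ran from 0.19 to 0.35 with 1 bird left out. Of 30 named genes 26 kept their sign under all 17 alternatives. With 1 bird left out ACACA ran from -0.19 (low-force bird 2) to 0.28, and turned also at -0.051 (high-force bird 2). FASN turned without low-force birds 1 and 3 (-0.021). INSIG1 ran from -0.14 to 0.49, and was below 0 when any of low-force birds 1, 2 and 4 (-0.063, -0.059 and -0.14) or high-force bird 4 (-0.053) was left out. GPAM ran from -0.42 to 0.13, and was above 0 when low-force bird 1 (0.13) or 3 (0.062), both (0.78) or high-force bird 4 (0.0032) were left out. Birds were not treated as paired, because the labels name no batch and give the replicate only as a number within a group. Deviations of same-numbered birds correlated at 0.014, -0.0032, 0.205 and 0.318, over 0.1 in 2 of 4 pairs. Of 8 birds 3 correlated best with their own number. With the replicate block THRSP was at 1.97 (edgeR adjusted p = 0.0625). An unadjusted p under 0.05 then stood at 5 members and 1509 of 10136 genes, against 3 members and 1301 genes without the block. The SE with the block was 0.16 in place of 0.27 for FADS1 and 0.15 in place of 0.22 for FADS2. Among the members it rose only for ACACA, to 0.305 from 0.29. With 9 to 81 counts per bird, THRSP is the member that depth limits most.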

Other observations

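INSIG1 ranged more widely among the low than among the high-force birds, from 82.8 to 259 CPM against 95.5 to 181 CPM, and it averaged 149 ± 37.1 CPM (SD, n = 4) in high-force and 143 ± 78.5 CPM (SD, n = 4) in low-force birds. ACACA showed a similar contrast, from 5.79 to 17.2 CPM among low-force and from 10.4 to 14.9 CPM among high-force birds. The difference in spread was not tested for either gene.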
